A study of Homo sapiens with 4 samples.

Results

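EFNB2, the gene of the transmembrane ligand ephrin-B2, was examined together with other ephrin and EPH receptor genes in KYSE410 cells, an established line of human esophageal squamous cell carcinoma. The set holds 10 named genes: the ligand genes EFNB2, EFNB1, EFNA1, EFNA4 and EFNA5, and the receptor genes EPHA2, EPHA4, EPHB2, EPHB3 and EPHB4. Its members were all probe sets annotated with exactly 1 of these symbols, which gave 19 probe sets of 9 genes, out of 54613 probe sets on the array other than controls. EPHB2 had no probe set under this rule and was not analysed here. The samples were 2 arrays of cells treated with YM155, a small molecule known for lowering survivin expression, at 20 nM for 6 h, and 2 arrays of untreated cells. One protocol field names cisplatin instead, with another dose and another time. Drug, dose and time were taken from the treatment labels, and the source names and title also give YM155. All cells were of 1 line, and the labels do not say whether replicates came from separate cultures (titles of the YM155 arrays hold the codes B1 and B2, which are not explained), so spreads and p-values refer to these arrays and may be technical.

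Ephrins are ligands held on the cell surface, and EPH receptors are receptor tyrosine kinases that bind them on a neighbouring cell. A-type ephrins are tethered by a lipid anchor, while B-type ephrins cross the membrane and have a cytoplasmic tail. Binding can signal forward into the cell with the receptor and in reverse into the cell with the ligand, and it is known for cell repulsion, boundary formation and the sorting of cells. In epithelia, EPHA2 and its ligand ephrin-A1 are widely expressed. The pair of ephrin-B2 and EPHB4 is best known from arterial and venous endothelium.

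EFNB2 was the member with the largest difference, and it stood higher after YM155, whereas the A-type ligand genes EFNA4, EFNA5 and EFNA1 and the receptor gene EPHB4 had lower values. Since the set was put together with results of this comparison known, and EFNB2 for its difference, the differences below are a description. Counts of members called by the fit are printed beside those of all genes, and nothing is read from them. The stretches before the annotated starts of the 3 members with the largest differences are shown because these genes differed in opposite directions. All 10 members matched an entry of the RefSeq promoter table (GRCh38.p14), and each sequence holds the 250 bases before the first listed start, 5′ to 3′ on the strand of the gene. They are chr13:106535663-106535912 on the minus strand for EFNB2, chr1:155063490-155063739 on the plus strand for EFNA4, and chr5:107670938-107671187 on the minus strand for EFNA5. Capitals mark the letters of motifs that were searched on both strands. These were CCAAT, known as the CCAAT box, and GGGCGG, known as the GC box. Searched as well were TATAAA, the TATA box, and TGGGAA, the core sequence read by the Notch factor RBPJ.
EFNB2: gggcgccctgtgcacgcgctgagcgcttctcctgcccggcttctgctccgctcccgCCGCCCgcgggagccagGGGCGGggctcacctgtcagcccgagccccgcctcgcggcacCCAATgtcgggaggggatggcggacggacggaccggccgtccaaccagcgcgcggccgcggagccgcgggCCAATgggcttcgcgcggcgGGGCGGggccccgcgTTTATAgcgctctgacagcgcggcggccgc
EFNA4: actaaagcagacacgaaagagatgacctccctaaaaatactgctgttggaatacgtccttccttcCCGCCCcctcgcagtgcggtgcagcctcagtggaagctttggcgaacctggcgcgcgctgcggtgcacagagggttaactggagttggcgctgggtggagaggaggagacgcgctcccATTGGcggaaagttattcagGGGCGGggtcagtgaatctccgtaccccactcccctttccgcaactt
EFNA5: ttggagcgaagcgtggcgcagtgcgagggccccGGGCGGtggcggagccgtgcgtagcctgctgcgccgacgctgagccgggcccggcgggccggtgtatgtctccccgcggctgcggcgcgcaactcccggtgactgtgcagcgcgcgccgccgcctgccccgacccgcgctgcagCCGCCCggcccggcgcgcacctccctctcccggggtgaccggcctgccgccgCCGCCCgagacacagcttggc
The EFNB2 stretch held 2 CCAAT letters, which begin 135 and 65 bases before the start, 3 GC boxes, and TATAAA letters in reverse orientation 30 bases before it. EFNA4 held 1 CCAAT box and 2 GC boxes, and EFNA5 held 3 GC boxes. The TATAAA letters occurred in 1 of the 10 members, EFNB2, and in 10.7% of 35116 stretches. The RBPJ core occurred in 1 of 10, EFNB1, and in 20.8% of all. CCAAT letters occurred in 5 of 10 and in 32% of all, and GC boxes in 10 of 10 and in 42.6% of all. Members were searched at their first listed start only, whereas the 35116 stretches include every listed start of a gene. No marked motif overlaps another in the sequences shown. A match of letters is not a binding site, and none of these motifs was measured here.

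The values are robust multi-array average (RMA) intensities on a log2 scale, and each difference is YM155 minus untreated. Probe sets whose mean over the 4 arrays lay under 3.32 log2, the 40th percentile, were not shown to exceed background and were left out of the fit. That kept 32768 probe sets and 14043 genes, and of the members 14 of 19 probe sets and 8 of 9 genes. Brightness depends on the probe, so levels are compared between arrays at the same probe set. Where probe sets are ordered by brightness or summed over marker lists, this describes signal and not amounts of RNA. RMA has set the arrays to a common distribution, so differences are relative to the other genes, whose median difference was −0.02. A bulk measurement does not tell fewer cells of a kind from less RNA per cell.

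The arrays were not equally far apart. Differences of at least 2-fold were found at 56 of 32768 probe sets between the YM155 arrays, against 1690 between the untreated arrays. Untreated replicate 1 differed in this way from the YM155 arrays at 739 and 850 probe sets, fewer than from untreated replicate 2, and untreated replicate 2 differed from the YM155 arrays at 1811 and 2140. In median over genes, the absolute difference was 0.12 log2 between the YM155 arrays and 0.23 between the untreated arrays, and for the 8 members it was 0.12 and 0.14. The 3′ over 5′ signal of ACTB, a measure of RNA integrity, was 2.10 and 2.95 log2 in YM155 arrays and 2.72 and 2.18 in untreated arrays. For GAPDH it was 0.03 and 0.21 in YM155 arrays and 0.04 in both untreated arrays. The groups overlapped for both genes, and YM155 replicate 2 had the highest value of each. Of the squamous epithelium markers, 8 of 10 had a probe set and 8 were kept, with summed intensities of 15670 and 15684 in YM155 and 10787 and 11862 in untreated arrays, led by SFN at 13.15 and 13.19 log2 in YM155 and 12.25 and 12.74 in untreated arrays and by KRT5 at 11.19 in both YM155 arrays and 10.86 and 10.74 in untreated arrays. These sums are of linear intensities, so the brightest markers weigh most in them. Of the 8 squamous markers kept, 6 had positive and 2 negative differences. Both YM155 arrays lay above both untreated arrays for 4 of them, as for 19.3% of all genes tested. Their median difference was 0.30, at 0.09 against untreated replicate 1 alone and 0.44 against replicate 2 alone. The part of this shift in the differences below was not tested. Of 10 endothelial markers 4 were kept, the brightest being CLDN5 at 5.15 and 5.25 in YM155 and 5.26 and 5.09 in untreated arrays and ESAM at 4.33 in both YM155 arrays and 4.22 and 4.46 in untreated arrays. PECAM1 and VWF were kept as well, while CDH5, TIE1, TEK, KDR, ERG and EMCN lay below the limit. The summed intensity of the list was 129 in both YM155 arrays and 132 and 127 in untreated arrays. Of 10 fibroblast markers 4 were kept, with sums of 164.5 and 183 in YM155 and 184 and 169 in untreated arrays, the brightest being COL1A1 (6.08 and 6.24 in YM155, 6.18 and 6.12 in untreated arrays) and THY1 (4.86 and 4.90 in YM155, 5.02 and 4.87 in untreated arrays). Of 8 leukocyte markers with a probe set 5 were kept, while PTPRC, CD14 and MS4A1 lay below the limit. The list's sum, 1043 and 1014 in YM155 and 758 and 1129 in untreated arrays, was made up mostly of LCP1, at 9.91 and 9.86 log2 in YM155 and 9.41 and 10.03 in untreated arrays. CD3D was next, at 4.37 and 4.17 in YM155 and 4.20 and 4.22 in untreated arrays.

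EFNB2 was measured by 2 probe sets. The brighter one, 202668_at, read 10.77 and 10.94 log2 in YM155 arrays and 9.11 and 8.96 in untreated arrays. The second, 202669_s_at, read 8.85 and 8.62 in YM155 arrays and 6.92 and 6.91 in untreated arrays. In both probe sets the YM155 arrays lay above the untreated arrays with a wide gap and without overlap. The means of 202668_at were 10.85 ± 0.12 in YM155 and 9.04 ± 0.11 in untreated arrays (SD, n = 2 each), a difference of 1.81 ± 0.15 log2 (standard error, SE, from limma) or 3.52-fold. For 202669_s_at the difference was 1.82 ± 0.15 log2, or 3.54-fold. Both probe sets thus gave nearly the same size although their brightness differed.

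The difference of EFNB2 hardly depended on which untreated array it was taken from. The YM155 mean of 202668_at stood 1.74 log2 above untreated replicate 1 and 1.89 above untreated replicate 2. The untreated arrays themselves were 0.15 apart at this probe set. Leaving out single arrays gave differences between 1.73 and 1.90. Ordered by the size of the positive difference, EFNB2 was at place 10 of 14043 genes, which is the value it was chosen by.

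**Figure D1:**
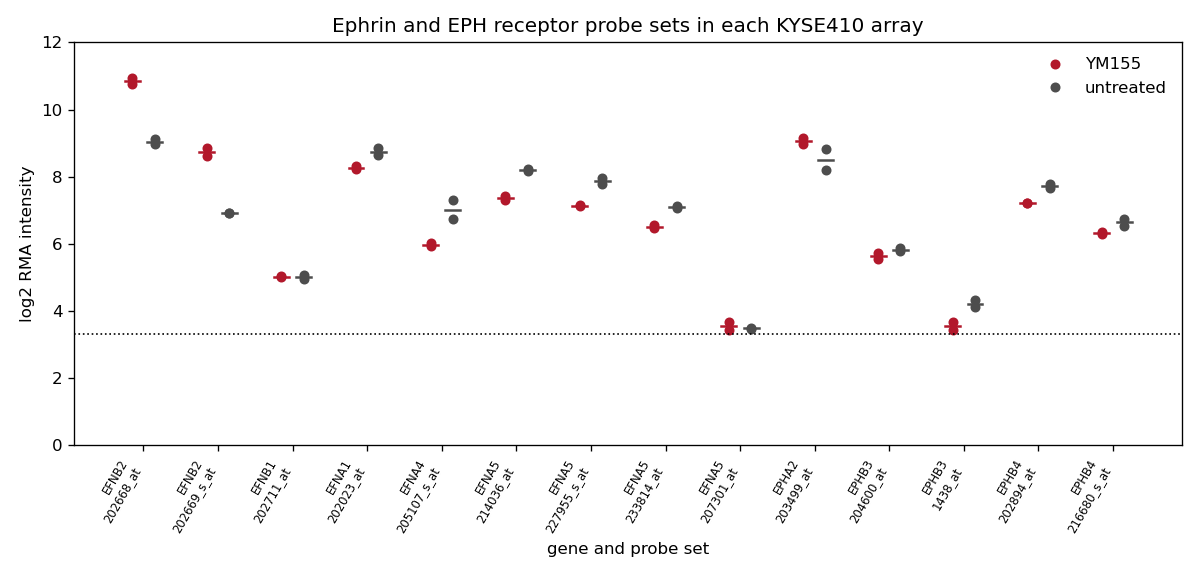
Log2 RMA intensity (vertical axis) of the 14 kept probe sets of 8 ephrin and EPH receptor genes (horizontal axis), with 1 point per array, YM155 left of untreated, a short line at each group mean and a dotted line at the filter's limit of 3.32. Both EFNB2 probe sets stand higher in YM155 arrays, the probe sets of EFNA1, EFNA4, EPHB3 and EPHB4 and the bright ones of EFNA5 stand lower, and heights are not comparable between probe sets.

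The differences of the other B-type ligand genes were smaller in value. EFNB1, a B-type ephrin encoded on the X chromosome, read 5.0 and 5.05 log2 in YM155 arrays and 4.96 and 5.09 in untreated arrays. Its groups overlapped, and its difference was 0.0014 ± 0.14 (SE). EFNB3, a B-type ephrin outside the named set, read 4.77 and 4.95 in YM155 arrays and 4.53 and 4.55 in untreated arrays at its brighter probe set. These groups did not overlap, but the difference was 0.32 ± 0.14, and 0.33 ± 0.14 at a second, dim probe set.

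The A-type ligand genes went the other way from EFNB2. EFNA4, the gene of ephrin-A4, read 5.95 and 6.01 log2 in YM155 arrays and 6.74 and 7.29 in untreated arrays. It was lower in YM155 without overlap, by a difference of −1.04 ± 0.22 (SE), and the untreated arrays were 0.55 apart. The size therefore depended on the array left out, between −1.31 and −0.76. EFNA4 was the only member at least 2-fold lower and EFNB2 the only one at least 2-fold higher, where 1.15% and 0.947% of all genes tested were.

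EFNA5, the gene of ephrin-A5, had 4 kept probe sets. The brightest, 214036_at, read 7.44 and 7.31 log2 in YM155 arrays and 8.23 and 8.16 in untreated arrays. The groups were apart by more than 0.7 log2 at their nearest arrays, and the mean difference was −0.82 ± 0.14 (SE), or 1.76-fold lower. Probe set 227955_s_at gave −0.74 ± 0.15 and 233814_at gave −0.60 ± 0.13, both without overlap. The fourth, 207301_at, gave 0.06 ± 0.15 with overlapping groups, at 3.68 and 3.43 in YM155 and 3.51 and 3.48 in untreated arrays, close to the limit of 3.32. The 3 bright probe sets of EFNA5 had negative differences with every array left out.

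EFNA1, the gene of ephrin-A1 and a ligand of EPHA2, read 8.33 and 8.22 log2 in YM155 arrays and 8.64 and 8.85 in untreated arrays. It was lower without overlap, at −0.47 ± 0.15 (SE), or 1.38-fold. EFNA3, an A-type ephrin outside the named set, read 6.63 and 6.57 in YM155 arrays and 7.01 and 7.52 in untreated arrays, a difference of −0.67 ± 0.21 that lay between −0.93 and −0.41 with single arrays left out. All 4 A-type ligand genes that were kept, EFNA1, EFNA3, EFNA4 and EFNA5, thus had both YM155 arrays below both untreated arrays, as had 25.6% of all genes tested. EFNA2, the remaining gene of this class examined, lay below the limit.

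In the order of genes on chromosome 1 in RefSeq (GRCh38.p14), EFNA4, EFNA3 and EFNA1 follow each other, with ADAM15 before them and SLC50A1 and DPM3 after them. ADAM15, a membrane metalloprotease gene, read 7.04 in both YM155 arrays and 6.92 and 7.10 in untreated arrays, and its groups overlapped (difference 0.03 ± 0.14 SE). SLC50A1, a sugar transporter gene, read 8.38 and 8.05 in YM155 arrays and 8.61 and 8.70 in untreated arrays (−0.44 ± 0.16), and DPM3 differed by −0.13 ± 0.12. The lower values were thus not shared by ADAM15, while SLC50A1 had a difference close to that of EFNA1. SLC50A1 and DPM3 had both YM155 arrays below both untreated arrays, as had 25.6% of all genes tested. The annotation also holds a read-through gene of EFNA4 and EFNA3, and whether their probe sets read it was not tested. In EFNA4 and EFNA3 alike, untreated replicate 2 stood above untreated replicate 1, by 0.55 and 0.52 log2. EFNA5 is encoded on chromosome 5, and its untreated arrays differed by −0.06.

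**Figure D2:**
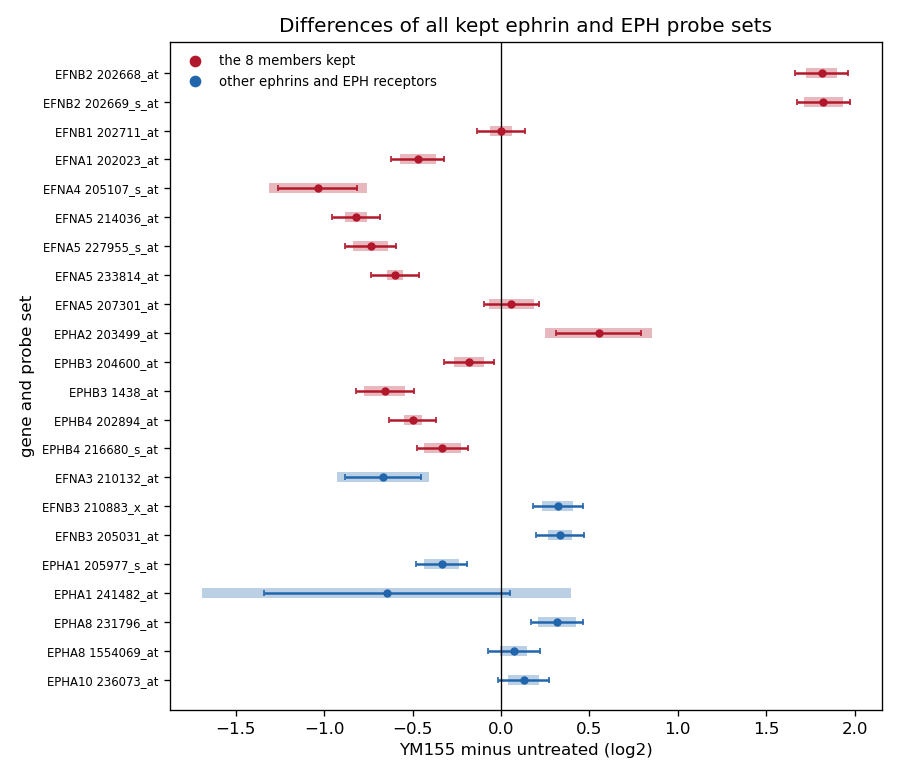
Difference in log2 intensity, YM155 minus untreated (horizontal axis), of the 22 kept probe sets of the ephrin and EPH receptor family (vertical axis), with the SE from limma as error bars and the range over arrays left out as a pale bar. EFNB2 stands at 1.81 and 1.82, the bright probe sets of the A-type ligands lie between −1.04 and −0.47, and EPHA1 241482_at spans 0 because the untreated arrays are 2.09 apart.

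Among the receptors, EPHA2 had higher and EPHB4 lower values after YM155. EPHA2, an A-type receptor of epithelial and carcinoma cells, read 9.14 and 8.98 log2 in YM155 arrays and 8.20 and 8.81 in untreated arrays. The groups did not overlap, but the nearest arrays were close, and the difference of 0.55 ± 0.24 (SE) became 0.86 against untreated replicate 1 alone and 0.25 against replicate 2 alone. EFNA1 and EPHA2, which bind each other, thus had differences of opposite sign.

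EPHB4, the B-type receptor best known as a partner of ephrin-B2, read 7.23 in both YM155 arrays and 7.78 and 7.68 log2 in untreated arrays. Its difference was −0.50 ± 0.13 (SE), or 1.41-fold lower, and its second probe set, 216680_s_at, gave −0.33 ± 0.15, also without overlap. EFNB2 and EPHB4 therefore stood on opposite sides of 0 in all 4 of their probe sets. EPHB3, another B-type receptor, read 5.74 and 5.56 in YM155 arrays and 5.80 and 5.87 in untreated arrays at 204600_at, a difference of −0.18 ± 0.14. Its dim probe set 1438_at, at 3.45 and 3.68 in YM155 and 4.12 and 4.33 in untreated arrays, gave −0.66 ± 0.16. Both were lower without overlap, but the probe sets differed in size.

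EPHA4, an A-type receptor that also binds B-type ephrins, was not shown to exceed background. Its 5 probe sets ran from 1.66 to 3.03 log2 in YM155 arrays and from 1.79 to 3.10 in untreated arrays, all under the limit of 3.32. Of the 9 other EPH receptors listed, 6 had no kept probe set: EPHA3, EPHA5, EPHA6, EPHA7, EPHB1 and EPHB6. With EFNA2, these 7 genes read from 1.30 to 3.14 in YM155 and from 1.58 to 2.93 in untreated arrays over 20 probe sets. EPHA1 read 5.20 and 5.14 in YM155 arrays and 5.60 and 5.41 in untreated arrays at its brightest probe set (−0.34 ± 0.15 SE). A second EPHA1 probe set read 3.21 and 3.11 in YM155 and 2.76 and 4.85 in untreated arrays, and its groups overlapped. EPHA8 (0.32 ± 0.15) and EPHA10 (0.13 ± 0.14) were dim at their brightest probe sets, at 4.09 to 4.54 and 4.15 to 4.36 over the 4 arrays. A second kept EPHA8 probe set, 1554069_at, gave 0.07 ± 0.15 with overlapping groups.

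Over the 8 members with a kept probe set, taking the brightest of each gene, 2 had both YM155 arrays above both untreated arrays (EFNB2 and EPHA2), 5 had both below (EFNA1, EFNA4, EFNA5, EPHB3 and EPHB4) and EFNB1 overlapped. Over all genes tested, 19.3% lay above and 25.6% below in this way. Of their 14 kept probe sets, 3 lay above, 9 below and 2 overlapped, beside 19.4% above and 23.9% below over all kept probe sets. The members' median difference was −0.33, beside −0.02 for all genes, and it was −0.26 against untreated replicate 1 alone and −0.33 against replicate 2 alone. By limma with Benjamini-Hochberg adjustment, 0 of 8 members passed an adjusted p of 0.05 in either direction, as did 0 of 14043 genes (0%). At an unadjusted p under 0.05 there were 5 members, 1 higher and 4 lower, and 12.7% of all genes tested. Without untreated replicate 1, limma called EFNB2 higher and EFNA4 and EFNA5 lower, as it did 4.3% and 3.71% of all genes, whereas leaving out any other array called 0 members. The filter took the mean over all 4 arrays, so a gene that was bright in 1 group could pass through that group alone. These counts include the values by which the set was chosen.

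**Figure D3:**
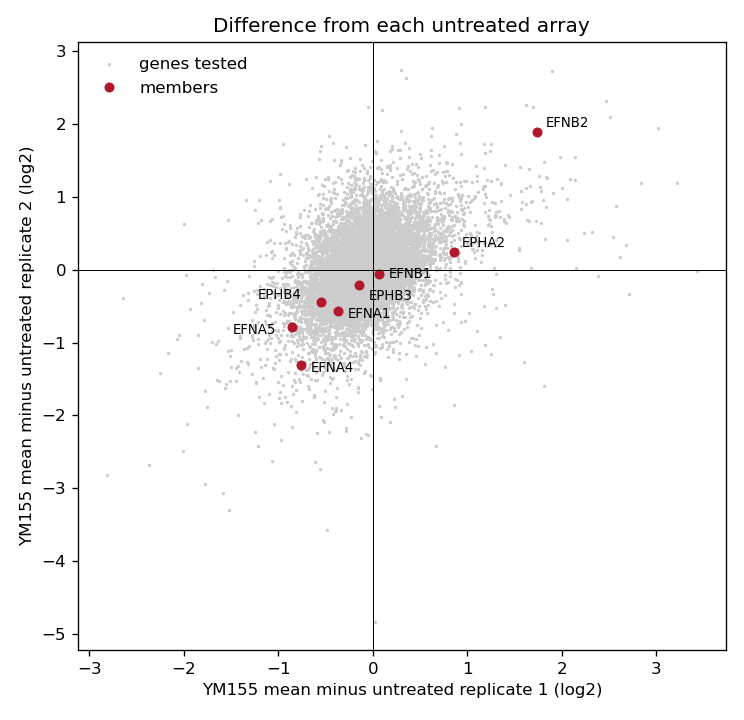
Difference of the YM155 mean from untreated replicate 1 (horizontal axis, log2) and from untreated replicate 2 (vertical axis, log2) for 14043 genes (grey) and the 8 members (red). EFNB2 lies near the diagonal at 1.74 and 1.89, EPHA2 at 0.86 and 0.25, EFNA4 at −0.76 and −1.31, and both axes share the YM155 mean.

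The genes whose 4 values, centred on their own mean, lay nearest to those of EFNB2 (202668_at) were SRSF6, a splicing factor gene, DDX5, an RNA helicase gene, SGK1, a serine/threonine kinase gene, ZNF451, a zinc finger gene, ALDH1A3, a retinaldehyde dehydrogenase gene, and IL6R, the interleukin-6 receptor gene. Their Euclidean distances over 4 arrays were between 0.39 and 0.45 log2, where the median distance of all other genes was 1.86. SRSF6 read 10.72 and 10.94 in YM155 arrays and 9.27 and 9.42 in untreated arrays. SGK1 read 10.69 and 10.65 in YM155 arrays and 8.86 and 9.20 in untreated arrays. ALDH1A3 read 10.59 and 10.53 in YM155 arrays and 9.30 and 8.84 in untreated arrays. With 4 arrays, this likeness mainly states a positive difference of similar size, from 1.43 to 1.96 log2.

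Other genes of ephrin and EPH signalling were taken from lists of known partners, and of the genes tested in each list 0 passed an adjusted p of 0.05 (limma, Benjamini-Hochberg) in either direction. The counts at an unadjusted p under 0.05 given for each list stand beside 12.7% of all genes tested, and those of negative differences beside 7429 of 14043 genes. Among 17 adaptors and phosphatases tested, 6 had positive and 11 negative differences, with a median of −0.11, and 4 had an unadjusted p under 0.05. GRB7, an adaptor that binds activated receptors, read 5.28 and 4.81 log2 in YM155 arrays and 5.90 and 7.20 in untreated arrays. Its untreated arrays were far apart, and the difference of −1.51 ± 0.47 (SE; adjusted p = 0.324) lay between −2.16 and −0.85 when single arrays were left out. INPPL1, the inositol phosphatase SHIP2 that binds EPHA2, stood at −0.61 ± 0.20 (−0.85 to −0.38 with single arrays left out). PTPRO, a receptor phosphatase known to act on EPH receptors, stood at 0.61 ± 0.18 at its bright probe set. That probe set read 11.18 and 11.04 in YM155 arrays and 10.70 and 10.30 in untreated arrays. The other PTPRO probe sets lay far below the limit, with means near 2 log2 and differences of 0.04 and 0.05. Whether the bright probe set reads PTPRO RNA was not tested. PTPN13, a phosphatase with PDZ domains, stood at 0.49 ± 0.23 (0.20 to 0.78). The groups of GRB7, INPPL1, PTPN13 and the bright PTPRO probe set did not overlap.

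Of 9 kinases tested, 4 had positive and 5 negative differences, with a median of −0.07 and 1 gene at an unadjusted p under 0.05. ABL2, an ABL family kinase that acts on the actin skeleton, read 9.80 and 9.83 log2 in YM155 arrays and 8.36 and 8.79 in untreated arrays. Its difference of 1.24 ± 0.18 (SE; adjusted p = 0.184) was without overlap, and its next brightest probe set gave 1.39. A dimmer one gave 1.52, but its untreated arrays, at 5.24 and 7.24, were far apart. PIK3R1, a regulatory subunit of PI3 kinase, stood at 0.35 ± 0.16 (0.18 to 0.51 with single arrays left out). PAK2 (0.49 ± 0.33) and SRC (−0.28 ± 0.24), kinases downstream of ephrin contacts, had overlapping groups at their brightest probe sets. Of the further kept PAK2 probe sets, 208875_s_at (0.57) and 208878_s_at (0.54) did not overlap, while 208876_s_at (0.19) and 1559052_s_at (0.50) did. The other kept probe sets of SRC had differences between −0.08 and 0.12, all with overlapping groups.

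Partners of the ephrin-B tail and PDZ or junction proteins were split, with 7 of 14 positive and 7 negative (median −0.05, 3 at an unadjusted p under 0.05). RGS3, a regulator of G protein signalling that binds the ephrin-B tail, read 5.21 and 5.11 log2 in YM155 arrays and 7.01 and 6.06 in untreated arrays. It was lower without overlap (−1.37 ± 0.33 SE; adjusted p = 0.255), with a range from −1.84 to −0.90. CLDN4, a tight junction claudin, read 9.66 and 9.47 in YM155 arrays and 7.74 and 9.15 in untreated arrays, so that its difference of 1.12 ± 0.48 was mostly from untreated replicate 1 and ran from 0.42 to 1.82. TJP1, the junction scaffold ZO-1, stood at 0.61 ± 0.17, or 0.19 at its dimmer probe set, and PARD6B, a polarity protein, at 0.67 ± 0.30 (0.29 to 1.05).

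Of 9 genes of proteases that cleave ephrins or EPH receptors, or of their subunits, 3 had positive and 6 negative differences (median −0.11, 1 at an unadjusted p under 0.05). MMP14, a membrane metalloprotease that cleaves EPHA2, read 7.71 and 7.70 log2 in YM155 arrays and 8.0 and 8.24 in untreated arrays, a difference of −0.41 ± 0.15 (SE; adjusted p = 0.358), and its 4 kept probe sets were all lower. ADAM17, a sheddase, stood at −0.29 ± 0.15 (−0.41 to −0.17). MMP2 (−0.56 ± 0.30) ranged from −0.98 to −0.14 over the arrays left out, and ADAM12 (0.29 ± 0.15) was dim.

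Notch and VEGF signalling are known to raise EFNB2 in endothelium. Of 16 genes of these pathways tested, 14 had negative differences and 2 positive ones, with a median of −0.28 and 4 genes at an unadjusted p under 0.05. HES1, a Notch target gene, read 10.31 and 9.88 log2 in YM155 arrays and 8.47 and 8.97 in untreated arrays, a difference of 1.38 ± 0.25 (SE; adjusted p = 0.2). HEY1, another Notch target, went the other way, with 5.20 in both YM155 arrays and 5.93 and 6.29 in untreated arrays (−0.91 ± 0.17; adjusted p = 0.203). The Notch ligand gene DLL1 stood at −0.87 ± 0.20, and the growth factor gene VEGFA, at 8.23 and 8.27 in YM155 and 9.45 and 8.47 in untreated arrays, at −0.71 ± 0.34. VEGFA lay between −1.19 and −0.22 with single arrays left out, and at its probe set 210513_s_at (−1.26) untreated replicate 2 was the higher of the untreated arrays. In this list both YM155 arrays lay below both untreated arrays for 11 of 16 genes (25.6% of all genes tested) and above them for 1, HES1 (19.3% of all).

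**Figure D4:**
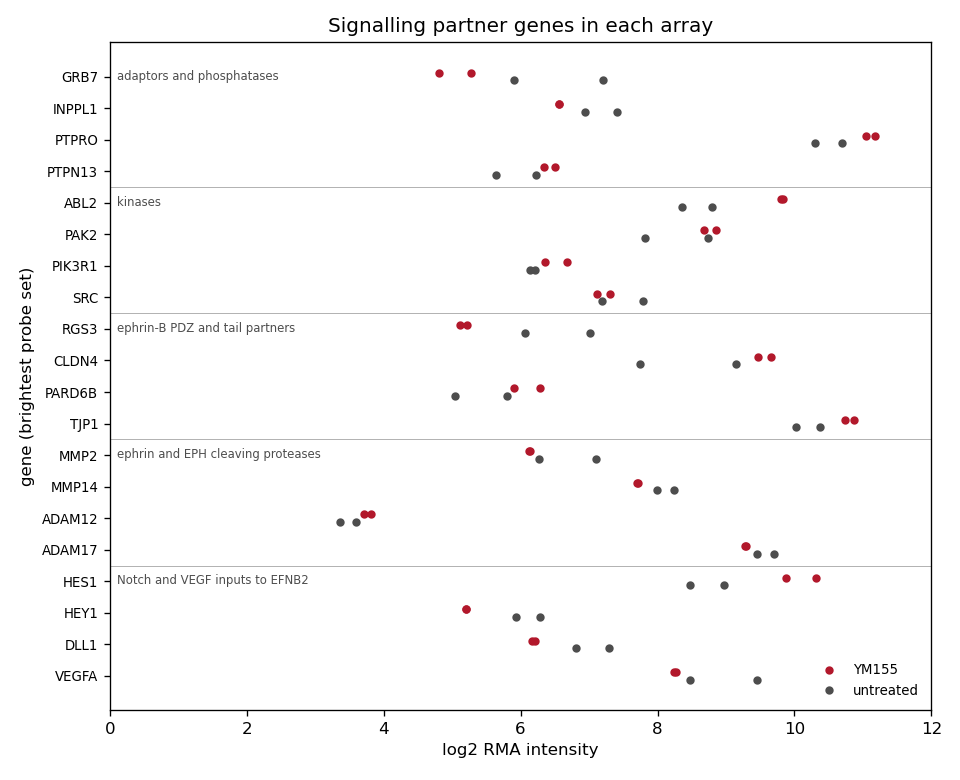
Log2 RMA intensity (horizontal axis) of the 20 named partner genes (vertical axis, grouped by list), with YM155 arrays above untreated arrays in each row and 1 point per array. ABL2 and HES1 stand higher and RGS3 and HEY1 lower in YM155 arrays, and the untreated arrays of GRB7 and CLDN4 are over 1 log2 apart.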

How the data were processed

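Total RNA of 2 YM155 and 2 untreated samples was measured on Affymetrix 3′ expression arrays. The authors deposited 1 intensity per probe set, made with RMA per the submitters' processing notes; its version and settings are not stated there. The intensity values ran from 2.42 to 15214, a linear scale, so log2 was taken. Of 54675 probe sets, 62 controls were left out; 41091 had 1 symbol in the platform annotation, 1801 several and 11721 none, and only the first kind named genes. Where a gene had several kept probe sets, the brightest on average stood for it.

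Differences were fitted with limma 3.58.1 and R 4.3.3 (two-sided lmFit and eBayes; 2 residual and 2.69 prior degrees of freedom), with Benjamini-Hochberg adjustment over 14043 genes. SEs of ephrin and EPH genes come from the same fit over 32768 probe sets, others from the gene fit. The fit was tested on simulated data. The members, partner lists and tests were chosen with earlier results of these data known. Every probe set of a member was described; other genes were up to 4 per partner list by absolute difference, the 2 brightest markers per cell type and the 6 profiles nearest to EFNB2. One list of partners is not reported here. Precision is limited by the number of arrays. Alternatives were other filters, probe set choices, normalizations, variance priors, a replicate block and arrays left out.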

Additional observations from a re-analysis of the deposited data

How the results depend on the processing

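With 2 arrays per group, calls rest on few degrees of freedom, and without either YM155 array no adjusted p was under 0.95. Over the arrays left out, the genes called higher ran from 0 to 604, those called lower from 0 to 521, members called higher from 0 to 1 and members called lower from 0 to 2. With either untreated array left out, the spread of the remaining untreated array is taken from the YM155 pair. The calls came from the fit without untreated replicate 1, where limma called EFNB2 (1.89), EFNA4 (−1.31) and EFNA5 (−0.79). Tested as probe sets in that setting, 0 were called. Over 12 alternatives EFNB2 ran from 1.73 to 1.90. EFNB1, at 0.0014, lay between −0.062 and 0.065 over the arrays left out and turned negative without untreated replicate 1 and without YM155 replicate 2. The other settings kept the direction of each member and called 0 members. The labels do not say that a replicate number marks a shared culture or day, and deviations of same-numbered arrays correlated at 0.0004 over genes; with the replicate block, 0 genes and 0 members were called, and the difference of EFNB2 was 1.81. EFNA4 could not be tested on probe sets free of the x and s suffixes, since its kept probe set has one.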
